A study of Mus musculus with 10 samples.

Results

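Annexins A1, A2, A3 and A5, the S100 proteins A6, A10 and A11 and vimentin are cytoskeletal and calcium-binding proteins linked to kidney injury. Their 8 genes, taken by symbol, were described in the renal cortex of 10 mice that had lost renal mass. For 7 of the 8, Anxa1, Anxa2, Anxa3, Anxa5, S100a6, S100a10 and Vim, the arrays held a probe set annotated to that gene alone, and all 7 passed the filter on low values, among 11485 genes tested. The only probe set that lists S100a11 carries 3 gene symbols, so S100a11 was not analysed here. Each gene was read from its probe set of highest mean.

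The mice were FVB/N animals aged 20 weeks with a partial kidney ablation and, later, a uninephrectomy. From 6 weeks past the ablation, which was 4 weeks past the uninephrectomy, 5 mice received aliskiren, a renin inhibitor, at 50 mg/kg per day, and 5 received losartan, a blocker of the type 1 angiotensin II receptor, at 500 mg/l. Dosing continued for 6 weeks. Every mouse had thus lost renal mass and received a drug that acts on the renin-angiotensin system, and mice without surgery or without drug were not analysed here. Expression was measured with 1 Affymetrix array per mouse, and all levels are log2 RMA values as deposited by the authors. A step of 1 is a doubling, and levels are compared between mice for a gene and never between genes.

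Annexins bind phospholipid membranes when calcium rises, and S100 proteins are small calcium sensors that attach to annexins and to other targets. Annexin A2 pairs with S100A10, and the complex links membranes to cortical actin and gathers plasminogen and its activator at the cell surface. Annexin A1 is induced by glucocorticoids and limits leukocyte recruitment through formyl peptide receptors, and annexin A5 coats membranes that expose phosphatidylserine. Vimentin is the intermediate filament of mesenchymal cells. Healthy tubule cells hold little of it, and it appears in tubule cells that lose their differentiated state after injury. Havcr1 encodes KIM-1, a phosphatidylserine receptor that injured proximal tubule cells place on their surface, and its level was used as the measure of tubular injury in each mouse.

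The sequence before the annotated start of 3 of these genes, 1 from each family, is shown because the genes moved together from mouse to mouse. A RefSeq promoter table of build GRCm38.p6 held 6 of the 8 genes, and the 250 bases before the start are given 5′ to 3′ on the gene's strand, at chr9:69453433-69453682 (plus strand) for Anxa2, chr3:90612644-90612893 (plus strand) for S100a6 and chr2:13574061-13574310 (plus strand) for Vim. Capitals mark matches on either strand to the AP-1 motif TGANTCA, the TATA box TATAAA and the GC box GGGCGG.
Anxa2: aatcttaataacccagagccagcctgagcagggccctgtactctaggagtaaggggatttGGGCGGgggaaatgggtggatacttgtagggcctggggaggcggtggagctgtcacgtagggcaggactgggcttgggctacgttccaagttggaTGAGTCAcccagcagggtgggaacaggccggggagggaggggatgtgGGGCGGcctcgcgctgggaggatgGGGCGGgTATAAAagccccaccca
S100a6: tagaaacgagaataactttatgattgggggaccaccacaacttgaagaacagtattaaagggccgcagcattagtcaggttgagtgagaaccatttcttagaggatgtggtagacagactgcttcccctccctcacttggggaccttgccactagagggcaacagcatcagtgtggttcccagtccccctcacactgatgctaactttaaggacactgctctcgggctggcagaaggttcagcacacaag
Vim: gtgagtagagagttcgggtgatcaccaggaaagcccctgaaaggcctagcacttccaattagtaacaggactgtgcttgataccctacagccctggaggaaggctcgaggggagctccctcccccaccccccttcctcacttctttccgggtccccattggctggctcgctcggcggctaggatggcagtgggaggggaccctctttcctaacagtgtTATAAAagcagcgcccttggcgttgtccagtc
The AP-1 letters stood in 2 of the 6 windows, those of Anxa2 and S100a11, against 6.87% of 27025 mouse promoters of that length. The TATA box letters stood in 3 of 6, those of Anxa1, Anxa2 and Vim, against 12.97%, and the GC box letters in 2 of 6, Anxa2 and S100a11, against 32.9%. The CArG box, bound by serum response factor, was in 0 of 6 windows and in 1.40% of all. The S100a6 and Anxa5 windows held none of these letters. S100a11 has no expression value here. Among the windows of genes that were measured, only that of Anxa2 held AP-1 or GC box letters. Such matches describe the sequence and do not show that a factor binds there.

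The drug made no difference past the threshold in any of the 7 genes, and the mice of both drugs overlapped for each of them. Of all 11485 genes, 0 passed limma at an adjusted p under 0.05 (0% called), and 542 (4.72%) had an unadjusted p under 0.05, against 0 of the 7. The differences, aliskiren minus losartan, ran from -0.09 to 0.04 with a median of -0.01, where the median over all genes was -0.01 as well. None of the 7 separated the mice of the drugs without overlap, where 105 of all genes (0.914%) did. The spread between mice of the same drug was wide. The median SD of the 7 genes was 0.59 with aliskiren and 1.096 with losartan, where the median over all genes was 0.11 with aliskiren and 0.16 with losartan.

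Anxa1 had levels of 9.26, 8.41, 8.19, 7.68 and 8.07 in aliskiren mice 1 to 5, against 8.25, 8.50, 10.20, 7.29 and 7.84 in losartan mice 1 to 5. Losartan mouse 3 was the highest and losartan mouse 4 the lowest, so the losartan mice enclosed the aliskiren mice. The means were 8.32 ± 0.59 with aliskiren and 8.41 ± 1.096 with losartan (SD, n = 5 each), a difference of -0.09 (limma SE 0.49, 95% interval -1.18 to 1.00).

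Anxa2, the partner of S100A10, stood at 10.14, 9.12, 8.61, 9.05 and 8.76 with aliskiren, against 8.86, 9.37, 10.78, 8.51 and 8.37 with losartan. Aliskiren mouse 1 and losartan mouse 3 were the only mice above 10 in their groups, and the other 8 mice lay within 0.99 of each other. The difference was -0.04 (SE 0.45), with means of 9.14 ± 0.60 for aliskiren and 9.18 ± 0.98 for losartan.

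Anxa3, a calcium-dependent phospholipid-binding annexin, had 8.74, 7.98, 7.45, 7.08 and 7.65 in the aliskiren mice, against 7.48, 8.05, 9.72, 6.59 and 6.86 in the losartan mice. Its highest and lowest mice, losartan 3 and losartan 4, differed by 3.13, or 8.73-fold. The difference between the drugs was 0.04 (SE 0.55). Anxa5 varied less, with 10.67, 10.05, 9.90, 9.96 and 9.95 with aliskiren, against 9.87, 10.28, 10.95, 9.72 and 9.70 with losartan. Aliskiren mouse 1 stood apart from 4 closely spaced mice of its group, and the difference was 0.00 (SE 0.25, 95% interval -0.54 to 0.55).

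S100a6, which encodes the growth-associated protein calcyclin, had the widest range. Its levels were 9.58, 9.27, 8.83, 7.93 and 8.29 with aliskiren, against 8.26, 9.07, 11.41, 7.54 and 7.68 with losartan. Losartan mouse 3 exceeded losartan mouse 4 by 3.87, or 14.6-fold, and stood far above every other mouse. The means were 8.78 ± 0.68 with aliskiren and 8.79 ± 1.58 with losartan, a difference of -0.01 (SE 0.68, 95% interval -1.51 to 1.49). S100a10 had the narrowest range, with 11.54, 11.26, 11.11, 11.04 and 11.03 with aliskiren, against 11.07, 11.40, 11.74, 10.81 and 10.78 with losartan. Here the 95% interval of the difference, 0.03 (SE 0.19), ran from -0.38 to 0.45, the tightest bound among the 7 genes.

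Vim stood at 9.61, 9.07, 8.94, 8.55 and 9.19 in the aliskiren mice, against 8.98, 9.38, 10.79, 8.03 and 8.23 in the losartan mice. Losartan mice held the highest level and the lowest 2. The difference was -0.01 (SE 0.46), with an SD of 0.38 for aliskiren and 1.098 for losartan. The sign of these differences depended on which mice were included. Without losartan mouse 3 all 7 were positive, from 0.18 to 0.64. All 7 were negative without aliskiren mouse 1 (-0.33 to -0.052), without losartan mouse 4 (-0.37 to -0.052) and without losartan mouse 5 (-0.29 to -0.061), and limma passed none of the 7 in any of these fits.

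**Figure D1:**
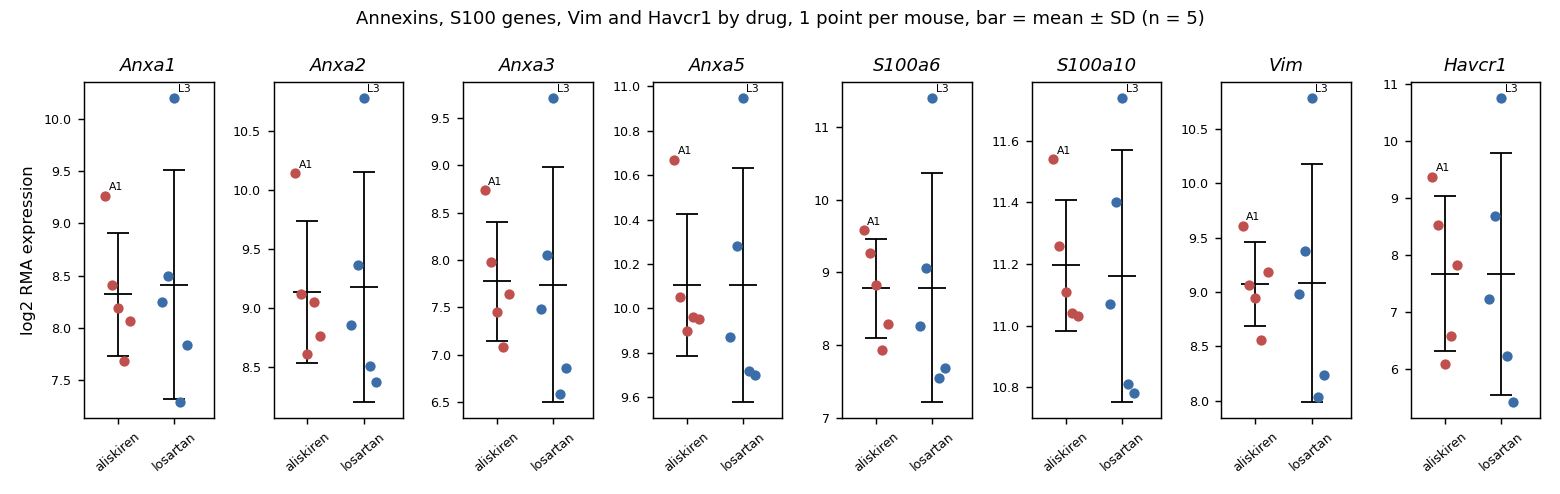
Log2 RMA expression (vertical axis, a scale for each gene) of 7 genes and Havcr1 in the 5 aliskiren mice (left, red) and the 5 losartan mice (right, blue), with a point per mouse and a bar for mean ± SD. The groups overlap in every panel, and losartan mouse 3 (L3) and aliskiren mouse 1 (A1) are the highest of their groups.

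The order of the mice was nearly the same for all 7 genes. Losartan mouse 3 was highest for 7 of 7 and aliskiren mouse 1 came next for 7 of 7. Losartan mouse 2 came next for 6, and aliskiren mouse 2 did for S100a6. Losartan mouse 4 was lowest for 4 genes and losartan mouse 5 for 3, and together they held the lowest 2 places for 6 of 7. Havcr1 had 9.37, 8.53, 6.08, 6.57 and 7.82 with aliskiren, against 7.23, 8.69, 10.76, 6.22 and 5.41 with losartan, so the same 3 mice led its order. Its widest gap between neighbouring mice was 0.26 of its range, below the 0.4 taken here to mark separate clusters.

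**Figure D2:**
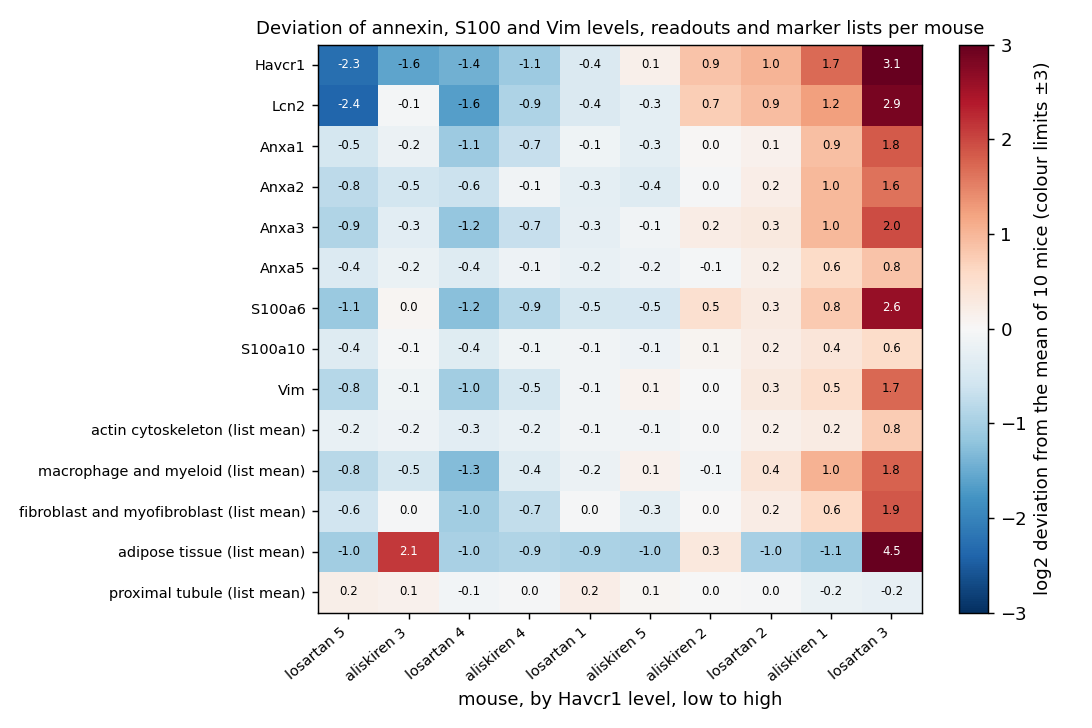
Deviation of each log2 level from its mean over 10 mice (colour and printed number, colours end at 3 in either direction), with mice ordered from low to high Havcr1. Rows give Havcr1, Lcn2, the 7 genes and the mean of 5 gene lists, and losartan mouse 3 and aliskiren mouse 1 at the right are above the mean for all 7 genes.

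All 7 genes rose with Havcr1 over the 10 mice. In limma with the Havcr1 level of the same array as the term, 7 of 7 passed at an adjusted p under 0.05 as higher with Havcr1, where 1225 of 11484 genes (10.7%) did so and 326 (2.84%) were lower. The median slope was 0.42 log2 units per log2 unit of Havcr1, against 0.01 over all genes. The 7 genes were chosen with earlier results of these data known, so these shares are given as a description only. Havcr1 and the 7 genes were read from the same arrays and share any difference between them. In whole cortex, more cells of a type and more RNA per cell cannot be told apart.

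Among the annexins Anxa3 had the steepest slope, at 0.52 (SE 0.06, limma adjusted p = 0.000918), or 1.44-fold per doubling of Havcr1. Its Pearson correlation with Havcr1 over the 10 mice was 0.95 (permutation p = 6e-05) and Spearman's rho was 0.94 (permutation p = 0.00024). Anxa1 rose by 0.44 per unit (SE 0.07, adjusted p = 0.00374) with r = 0.89 (permutation p = 0.00043) and rho = 0.84 (permutation p = 0.00355). Anxa2 rose by 0.42 (SE 0.05, adjusted p = 0.0018), or 1.34-fold per doubling, with r = 0.92 (permutation p = 9e-05) and rho = 0.94 (permutation p = 0.00024). The phosphatidylserine-binding Anxa5 had a shallower slope of 0.23 (SE 0.03, adjusted p = 0.0019), with r = 0.93 (permutation p = 4e-05) and rho = 0.92 (permutation p = 0.0006).

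Of the S100 genes, S100a6 had the steepest slope of the 7 genes and S100a10 the shallowest. S100a6 rose by 0.61 (SE 0.09, limma adjusted p = 0.00321), or 1.53-fold per doubling of Havcr1, and 0.183% of all genes had a larger slope. Its r was 0.89 (permutation p = 0.00067) and its rho 0.84 (permutation p = 0.00385). S100a10 rose by 0.17 (SE 0.02, adjusted p = 0.00184), with r = 0.94 (permutation p = 5e-05) and rho = 0.84 (permutation p = 0.00378), and 6.11% of all genes had a larger slope. Its probe set used here had a mean level of 11.18. The other S100a10 probe sets above the level filter followed Havcr1 less closely, with r = 0.69 at a mean level of 11.06 and r = 0.57 at a mean level of 5.84. Vim rose by 0.42 (SE 0.06, adjusted p = 0.00189), or 1.34-fold per doubling, with r = 0.92 (permutation p = 0.00014) and rho = 0.93 (permutation p = 0.00039). The permutation tests were two-sided over 100000 resamples, and the adjusted p-values run over all 11484 relations fitted. Without losartan mice 3 and 5, the 2 mice farthest from the median of Havcr1, r lay between 0.78 for S100a6 and 0.90 for Anxa3.

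**Figure D3:**
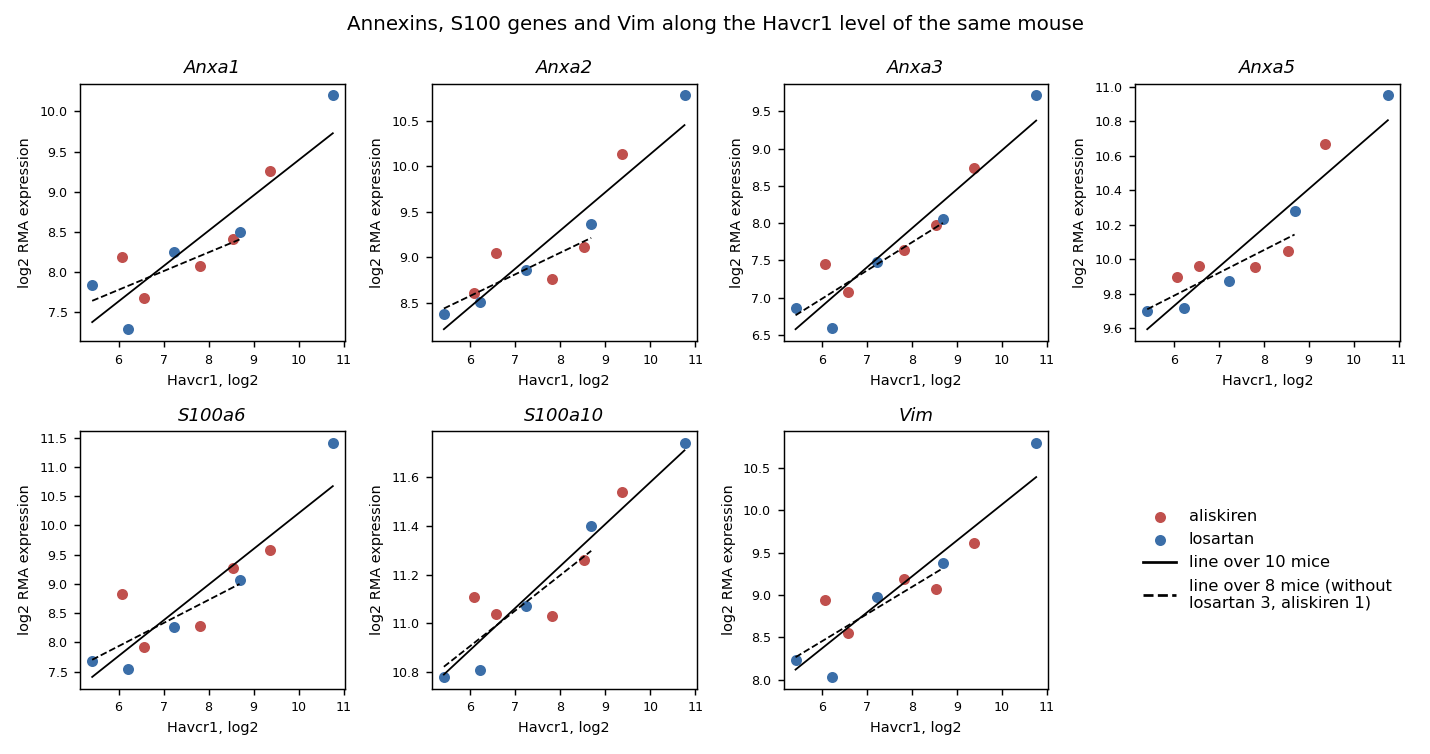
Log2 RMA expression of 7 genes (vertical axes) against the log2 Havcr1 level of the same mouse (horizontal axes), with aliskiren mice in red and losartan mice in blue. Solid lines are fitted over 10 mice and dashed lines over the 8 mice other than losartan 3 and aliskiren 1, whose slopes were also positive for all 7 genes, between 0.13 and 0.40.

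The calls depended on the 2 mice of highest Havcr1. Without losartan mouse 3, 5 of 7 genes passed, against 1.18% of all genes called as higher (7 of 7 and 11.2% at an unadjusted p under 0.05), and Anxa1 (limma adjusted p = 0.0844) and S100a6 (adjusted p = 0.064) did not. Without losartan mouse 3 and aliskiren mouse 1, 0 of 7 passed, with adjusted p between 0.181 for Anxa3 and 0.538 for Anxa1, and 1 of all 11484 genes did (0.00871%). The slopes of the remaining 8 mice were 0.38 for Anxa3, 0.24 for Anxa2, 0.23 for Anxa1, 0.13 for Anxa5, 0.40 for S100a6, 0.14 for S100a10 and 0.32 for Vim. At an unadjusted p under 0.05, 7 of 7 were higher with Havcr1 in these 8 mice, where 5.86% of all genes were. With Lcn2, the gene of the injury marker NGAL, in place of Havcr1, 7 of 7 passed with a median slope of 0.49. In that fit 1777 of all genes were called in either direction. Lcn2 was read from the same arrays and was also highest in losartan mouse 3 (10.19) and aliskiren mouse 1 (8.55). Of 5 tested injury readouts other than Havcr1, 4 rose with Havcr1, Lcn2 included, where 10.7% of all genes did. Cd44 rose by 0.82 (SE 0.10) and Vcam1 by 0.77 (SE 0.10), both steeper than each of the 7 genes.

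The slope was lower with aliskiren than with losartan for each of the 7 genes, and none of these differences passed. Vim had a slope of 0.23 with aliskiren and 0.50 with losartan, a difference of -0.27 (SE 0.10, limma adjusted p = 0.652). S100a6 had 0.35 with aliskiren and 0.72 with losartan, a difference of -0.37 (SE 0.19, limma adjusted p = 0.714). Of all genes 0 passed (0%) and 7.19% had an unadjusted p under 0.05, where 1 of the 7, Vim, did. The losartan slopes include mouse 3, which had the highest Havcr1 level of all.

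4 mice lay on the same side of the common line for all 7 genes. Aliskiren mouse 3, with the lowest Havcr1 of its group, was above the line for 7 of 7 genes, by 0.12 for Anxa2, 0.54 for Vim and 1.02 for S100a6. Losartan mouse 4 was below it for 7 of 7, by up to 0.44 for Anxa1, and losartan mouse 3 was above it for 7 of 7, by up to 0.74 for S100a6. Aliskiren mouse 2 was below it for 7 of 7 as well, by up to 0.40 for Anxa2. Fat markers were highest in the 2 mice above the line and came next in aliskiren mouse 2, which was below it. The mean over 8 adipose genes was 7.95 in aliskiren mouse 3, 6.14 in aliskiren mouse 2 and 4.67 to 4.91 in the rest of the group, against 10.33 in losartan mouse 3 and 4.78 to 4.87 in the rest of its group. Adipoq, the fat-cell hormone adiponectin, stood at 9.90 in aliskiren mouse 3, 7.35 in aliskiren mouse 2 and 12.96 in losartan mouse 3. With the adipose mean as a further term, 7 of 7 genes passed with slopes from 0.16 for S100a10 to 0.47 for S100a6, whose slope was 0.61 without that term. Over all genes, 599 were called in either direction with that term and 1551 without it. Losartan mouse 3 was also the highest for urothelial and smooth muscle markers. The mean of 8 urothelial genes was 5.19 to 5.59 in aliskiren mice, against 6.51 in losartan mouse 3 and 5.17 to 5.42 in the other losartan mice, with the uroplakin gene Upk3a at 8.29 in that mouse. The mean of 6 smooth muscle genes was 6.86 to 7.24 in aliskiren mice, against 8.31 in losartan mouse 3 and 6.79 to 7.19 in the other losartan mice, and 2 of 5 tested rose with Havcr1. The part of these cells in the levels of the 7 genes was not tested.

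Markers of macrophages and fibroblasts, cells that themselves make vimentin, annexins and S100 proteins, moved with Havcr1 too. Of 13 tested macrophage and myeloid markers 12 rose with it, at a median slope of 0.57. Those of smallest p were the lysosomal marker Cd68 at 0.64 (SE 0.05), the lipopolysaccharide coreceptor Cd14 at 0.65 (SE 0.06) and the complement gene C1qc at 0.59 (SE 0.07), and the steepest slope was that of the lysozyme gene Lyz2 at 0.76 (SE 0.11). The mean of all 14 markers measured ran from 6.95 to 8.52 in aliskiren mice and from 6.16 to 9.23 in losartan mice, and Itgam was below the level filter. Of 9 tested fibroblast and myofibroblast markers 8 rose, at a median slope of 0.45, among them the collagen genes Col3a1 at 0.59 (SE 0.09), Col1a2 at 0.51 (SE 0.08) and Col1a1 at 0.45 (SE 0.08). These 3 collagen genes did not pass without losartan mouse 3, at slopes of 0.51, 0.40 and 0.32, and Cd68, Cd14 and C1qc did. That list's mean ran from 7.09 to 8.43 in aliskiren mice and from 6.78 to 9.68 in losartan mice. The part of these cells in the rise of the 7 genes was not tested. All 5 neutrophil markers measured, S100a8 and S100a9 included, lay below the level filter. Among 9 tested endothelial markers 1 rose, at a median slope of 0.08. Among 3 tested lymphocyte markers 1 rose and 1 fell, at a median slope of -0.04.

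Other annexins and S100 genes rose in part. Of 4 other annexins tested, 1 rose: Anxa4, an epithelial annexin, by 0.09 per unit of Havcr1 (SE 0.02, limma adjusted p = 0.00447), with levels from 9.66 to 10.22. It kept that slope to 2 decimals without losartan mouse 3 and did not pass (adjusted p = 0.0729). Anxa6 at 0.11 (SE 0.05), Anxa7 at 0.04 (SE 0.02) and Anxa13 at -0.07 (SE 0.11) did not pass. The median slope of these 4 was 0.07. Of 5 other S100 genes tested, 2 rose, with a median of 0.08. S100a4, known from fibroblasts and leukocytes and, like S100a6, encoded in the S100 cluster of chromosome 3, rose by 0.33 (SE 0.05, adjusted p = 0.00205). It reached 7.003 in aliskiren mouse 1, the highest of its group, against 8.18 in losartan mouse 3. S100a13 rose by 0.14 (SE 0.04, adjusted p = 0.0446), or by 0.05 without losartan mouse 3, where it did not pass. In the comparison of the drugs 0 genes of either list passed, and the smallest p belonged to Anxa13 at 0.41 (SE 0.33) and S100a1 at -0.20 (SE 0.10).

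**Figure D4:**
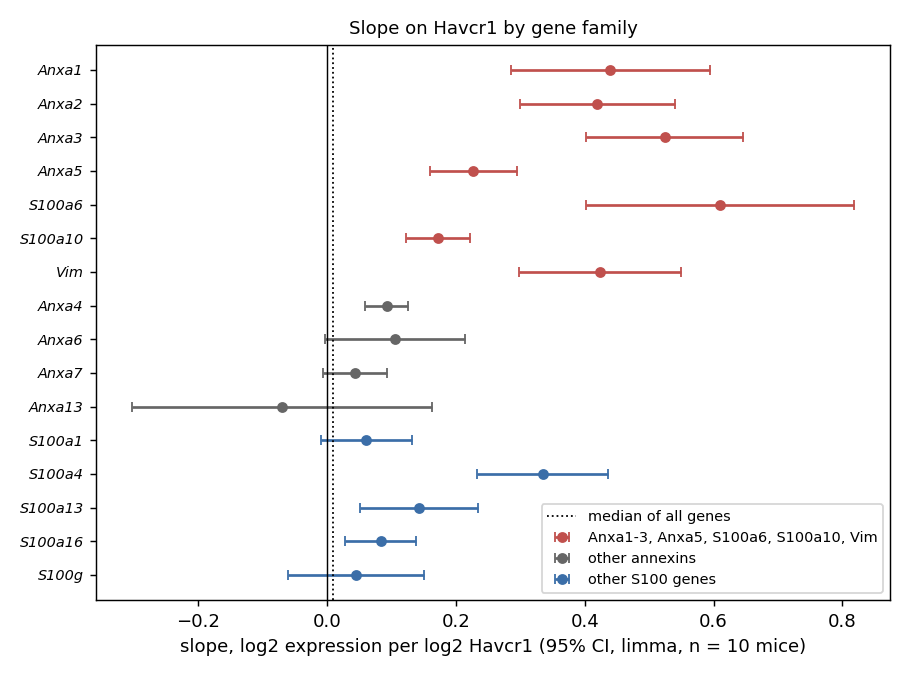
Slope of log2 expression per log2 unit of Havcr1 (points) with limma's 95% interval (bars) over 10 mice for the 7 genes (red), the other annexins tested (grey) and the other S100 genes tested (blue). The dotted line is the median of all genes, 0.01, and the intervals of all 7 genes lie above it.

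Other intermediate filament and lamin genes mostly had positive slopes, 9 of 10 tested. At an unadjusted p under 0.05, 7 were higher with Havcr1, and the share of all genes at that threshold was not computed. After adjustment, where 10.7% of all genes rose and 2.84% fell, 2 of the list rose. These were the epithelial keratins Krt8 at 0.13 (SE 0.03) and Krt18 at 0.31 (SE 0.09). Only 1 gene fell, the neuronal filament gene Prph at -0.12 (SE 0.03), and the median over the list was 0.10. Krt19, at 0.39 (SE 0.13), did not pass (limma adjusted p = 0.0754). Krt8, Krt18 and Prph did not pass without losartan mouse 3, at slopes of 0.10, 0.10 and -0.09. Between the drugs Krt19 differed by -1.098 (SE 0.48), the lowest p of these filament genes, and did not pass. In a list of actin cytoskeleton genes, which also held the galectin genes Lgals1 and Lgals3, 16 of 24 rose with Havcr1 and none fell. Its slopes ran from -0.017 to 0.50, with a median of 0.18. Capg, which caps actin filaments, rose by 0.50 (SE 0.06), the actin-sequestering Tmsb4x by 0.25 (SE 0.03) and the tropomyosin gene Tpm4 by 0.24 (SE 0.03). The actin genes Actb at 0.07 and Actg1 at 0.03 did not pass.

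Partners and receptors of these proteins showed 3 of 12 tested genes higher with Havcr1 and none lower, at a median slope of 0.08. Ahnak, the giant scaffold that binds the S100A10 and annexin A2 complex, rose by 0.29 (SE 0.05, limma adjusted p = 0.00524). Plat, tissue plasminogen activator, rose by 0.31 (SE 0.06, adjusted p = 0.0088), and Pla2g4a, the cytosolic phospholipase A2 that annexin A1 inhibits, by 0.20 (SE 0.03, adjusted p = 0.00319). These 3 did not pass without losartan mouse 3, at 0.18, 0.28 and 0.16. Cacybp, which encodes the calcyclin-binding protein, had a slope of -0.01 (SE 0.03). The formyl peptide receptor gene Fpr2 and the plasminogen gene Plg were below the level filter.

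**Figure D5:**
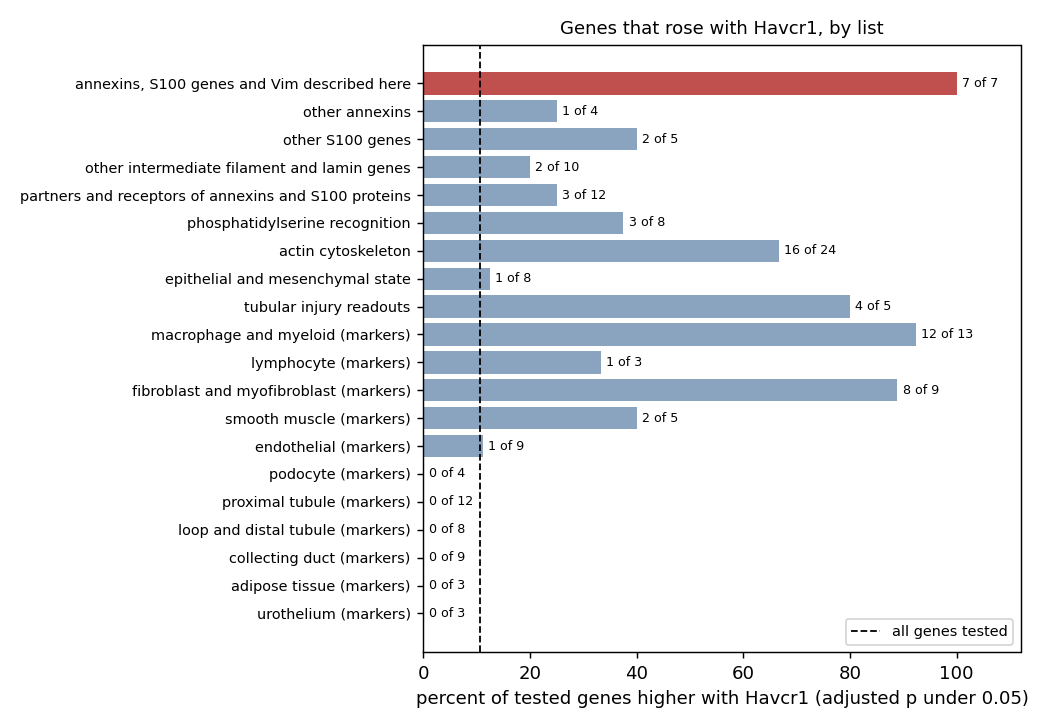
Percent of tested genes that rose with Havcr1 at an adjusted p under 0.05 (horizontal axis) for the 7 genes (red) and for each gene list with at least 3 tested genes (blue), with the counts beside the bars. The dashed line is the 10.7% of all genes. The macrophage, fibroblast, injury and actin lists lie farthest above it along with the 7 genes. Every other list with a gene that rose also lies above the line, several of them on 1 or 2 genes.

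The genes whose levels most resembled the mean of the 7 genes over the 10 mice were Zc3hav1, which encodes an antiviral zinc-finger protein (r = 0.99), Wfdc17 (r = 0.99), the RNA-editing enzyme gene Apobec1 (r = 0.99), the leukocyte actin regulator gene Coro1a (r = 0.99) and the mitochondrial carrier gene Slc25a24 (r = 0.99). The most opposed were Gcsh of the glycine cleavage system, the acetylcholine receptor subunit gene Chrnd and Svip, each with r = -0.97. They were picked from all tested genes by these correlations, which are given as a description of 10 arrays. On Havcr1, Coro1a rose by 0.43 (SE 0.04) and Slc25a24 by 0.52 (SE 0.07), and Gcsh fell by 0.08 per unit. The 5 genes most alike also passed along Havcr1 without losartan mouse 3, and Gcsh, Chrnd and Svip did not.

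Array medians lay between 5.53 and 5.57. The proximal tubule list, 12 of 12 genes tested, averaged 12.02 to 12.35 in aliskiren mice and 11.97 to 12.42 in losartan mice. All 12 had negative slopes on Havcr1, with a median of -0.06. At an unadjusted p under 0.05, 4 were lower, and the share of all genes at that threshold was not computed. After adjustment 0 passed, where 2.84% of all genes were lower. The lowest means of this list were those of aliskiren mouse 1 and losartan mouse 3. RNA quality was read from the log2 ratio of the 3′ to the 5′ actin control probe sets. A higher ratio means less intact RNA. The actin ratio was 1.78 to 2.13 in aliskiren mice and 1.599 to 2.27 in losartan mice. It was 1.78 in aliskiren mouse 1, the lowest of its group, and 1.79 in losartan mouse 3, above losartan mouse 1 only. The Gapdh ratio was 0.32 in aliskiren mouse 1, again the lowest of its group, and 0.43 in losartan mouse 3, within the 0.28 to 0.55 of the losartan mice. The part of RNA quality in the slopes was not tested.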

How the data were processed

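Total RNA of renal cortex from 10 mice was hybridised to 1 Affymetrix array each, from 100 ng of RNA per the labels' protocols. The values deposited by the authors are log2 signals of probe sets. The submitters' processing notes name RMA and Affymetrix Expression Console 1.1. RMA sets the arrays to a common distribution, so overall differences in RNA amount are lost. The table held 45101 probe sets. After 64 control sets were left out, 34945 carried 1 gene symbol, 932 several and 9160 none, and 34741 were matched by gene identifier to a RefSeq table. For a gene with several sets, the brightest on average was used. Genes below 5.53, the median level of the non-control sets, were dropped, which left 11485.

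Levels were compared with limma 3.58.1 in R 4.3.3 (lmFit, eBayes, two-sided, Benjamini-Hochberg over all tested genes, threshold 0.05) as aliskiren minus losartan, along Havcr1, and as the product of drug and Havcr1. No mouse was placed in a group by Havcr1. Permutation tests shuffled the mice 100000 times in numpy 2.4.6 (smallest possible p 1e-05), and figures were drawn with matplotlib 3.10.9. The fits were tested on simulated data. Arrays have no sequencing depth, and 5 mice per drug limit the precision. The genes and lists were chosen with earlier results of these data known. Named genes are the 7 genes, Havcr1, Lcn2, up to 3 genes of smallest p per list along Havcr1 and 1 per list between the drugs, and the genes most like or unlike the 7. After the values were seen these were reduced to genes that passed along Havcr1 and to lists other than most cell markers. Anxa6, Anxa7, Anxa13 along Havcr1, Actb, Actg1, Cacybp, Fpr2, Plg, Itgam, Adipoq, Krt19 along Havcr1, Lyz2, Upk3a, Lgals1, Lgals3, Snai2, Zeb1 and Zeb2 were added then. Cdh1 and Cdh2 along Havcr1, Snai1, Twist1, S100a8 and S100a9 are also named outside this rule. Clu, Dysf, Adgrb1 and Cdh1 fell under the rule between the drugs, did not pass, and are not described for that comparison. Alternatives covered the level filter, probe set, scaling, variance model, weights for arrays, a block for mouse number, the adipose list, the threshold, the Havcr1 scale, Lcn2, the drug as a further term and leaving out mice. The other Havcr1 probe set was added after the data were seen.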

Additional observations from a re-analysis of the deposited data

Results flagged for a closer look

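Anxa5 in aliskiren mouse 1, at 10.67, stood apart from the other 4 mice of its group, which lay between 9.90 and 10.05. Its gap to the nearest mouse was 0.798 of the group's range, above Dixon's 95% limit for 5 samples. It was the only such case in 18 groups examined (9 genes, 2 drugs), where chance gives about 1 in 20. The same mouse had the highest Havcr1 level of the aliskiren group, 9.37.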

How the results depend on the processing

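The 7 genes passed along Havcr1 as 7 of 7 under each other setting tried on all 10 mice except the probe set of largest SD, where 6 passed and S100a10 was at 0.14 (limma adjusted p = 0.153). Leaving out a mouse gave 5 to 7. Without losartan mouse 3 and aliskiren mouse 1 the count was 0, the median slope 0.24 and the count over all genes 1. Their direction was positive throughout. The count over all genes, 1551, was 595 with the filter at the 75th percentile, 486 with array weights, 599 with the adipose list as covariate, 2559 at a threshold of 0.1, 737 with the rank of Havcr1 and 2762 with the other Havcr1 probe set, and 136 (without losartan mouse 3) to 1629 when a mouse was left out. The median slope was 0.22 per rank and 0.85 on the other Havcr1 probe set, where 4 genes differed in slope between the drugs. With the mouse number as a replicate block the count over all genes was 359 and 7 of 7 genes passed. Same-numbered mice deviated together at r from -0.23 to 0.42, which cannot tell whether the number marks a pair. The labels do not state that the numbers pair mice, so the block is given only here. Single genes named along Havcr1 lost their call most often without both mice (40 of 40 genes) and without losartan mouse 3 (20).

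Drug differences stayed below the threshold in every setting, with 0 genes called, and their signs turned. With array medians set equal S100a6 was at 0.00049 and Vim at 0.0030, with quantile normalization Anxa5 at -0.0085, and with the mean of all probe sets Havcr1 at -0.057. With array weights Anxa1, Anxa2, S100a6 and Vim were at 0.087, 0.095, 0.39 and 0.20. With the adipose list Anxa2, S100a6 and Vim were at 0.0082, 0.097 and 0.055. Without losartan mouse 3 and aliskiren mouse 1 Anxa1, Anxa2, S100a6 and Vim were at 0.12, 0.11, 0.44 and 0.28. Cnn3 of the actin list, at -0.18 with the probe set of highest mean, was at 0.048 with the probe set of largest SD. When a mouse was left out the difference ran from -0.37 to 0.35 for Anxa1, -0.29 to 0.36 for Anxa2, -0.25 to 0.53 for Anxa3, -0.14 to 0.21 for Anxa5, -0.32 to 0.64 for S100a6, -0.061 to 0.18 for S100a10, -0.27 to 0.42 for Vim, -0.55 to 0.79 for Havcr1 and -0.29 to 1.02 for Lcn2. The cause of these changes was not tested. Fits that leave out mice rest on fewer samples, and 5 arrays per drug limit what can be told apart.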

Other observations

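Annexin A5 and KIM-1 bind phosphatidylserine, and other genes of its recognition were split. Of 8 tested, 3 rose with Havcr1 and none fell after adjustment, and the median slope was 0.03. At an unadjusted p under 0.05, 3 were higher and 2 were lower, and the share of all genes at that threshold was not computed. The receptor kinase gene Axl rose by 0.34 (SE 0.06, limma adjusted p = 0.00812). Pros1, the gene of a bridging ligand of this receptor family, rose by 0.23 (SE 0.05, adjusted p = 0.0187) and the lactadherin gene Mfge8 by 0.15 (SE 0.04, adjusted p = 0.0454). Without losartan mouse 3 the slopes were 0.26, 0.15 and 0.06, and none of these 3 passed. Mertk, the related receptor of macrophages, had a slope of -0.06 (SE 0.02) and Gas6, the other ligand, of 0.05 (SE 0.03), and neither passed (named after their values were seen).

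Of 8 tested genes of the epithelial and mesenchymal state, 8 had positive slopes on Havcr1 and 1 passed, the fibronectin gene Fn1 at 0.40 (SE 0.07), and the median slope was 0.13. Fn1 was at 0.27 without losartan mouse 3 and did not pass. The mesenchymal regulator genes Snai2 at 0.16 (SE 0.05), Zeb1 at 0.12 (SE 0.04) and Zeb2 at 0.12 (SE 0.05) had an unadjusted p under 0.05 and did not pass after adjustment. The cadherin genes Cdh1 at 0.05 (SE 0.03) and Cdh2 at 0.16 (SE 0.11) did not pass, and Snai1 and Twist1 were below the level filter. Of 8 podocyte, 8 loop and distal tubule and 9 collecting duct markers, 4, 8 and 9 were tested, and 0, 0 and 0 rose with Havcr1, while 1 loop and distal tubule marker fell.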
